A study of Homo sapiens with 54 samples.

Results

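The comparison described here was between olaparib-treated SUM1315 cells and SUM1315 cells given olaparib together with a low dose of cisplatin (CDDP). Its members were 6 of the 54 libraries of the series, chosen by their titles, with 3 libraries of olaparib alone and 3 of olaparib plus 2 µM CDDP. SUM1315 is an established triple-negative breast cancer (TNBC) line that carries a BRCA1 mutation, and both groups were parental cells held overnight in 8 µM olaparib, so the groups differed in CDDP alone. Other SUM1315 libraries, 3 per group, served for reference. They were untreated controls, parental cells given 2 µM CDDP without olaparib, and parental cells given olaparib plus 4 µM CDDP. OlaR cells, which are the olaparib-resistant derivative kept in 25 µM olaparib, were used with and without 2 µM CDDP. Parental cells given 4 µM CDDP without olaparib and OlaR cells given 4 µM CDDP were not compared with another group. Their libraries, also 3 per group, entered the joint fit of 27 libraries and the filter on low counts. They were also plotted with the summed levels of small nucleolar RNA and histone genes. All groups came from 1 line and the labels do not say that libraries of a group came from separate cultures, so p-values measure only the spread between these libraries.

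Olaparib is an inhibitor of PARP enzymes, which detect DNA single-strand breaks and add chains of ADP-ribose to nearby proteins, and it also holds PARP on the DNA. CDDP forms crosslinks between neighbouring purines and, less often, between the strands, and these are removed by nucleotide excision repair, the Fanconi anemia pathway and homologous recombination, in which BRCA1 acts. DNA damage signals can also reach NF-κB, a family of transcription factors that is held in the cytoplasm by IκB proteins and induces chemokines, survival factors and its own inhibitors.

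RNA was read from the 3′ ends of polyadenylated transcripts. Levels are given as adjusted read counts, which are reads per gene that the authors brought to a common library size of 5585170 reads. The olaparib libraries held 5763500 to 6943388 reads and the combination libraries 4977284 to 6377045. Of 27470 genes in the table, 13133 reached 10 adjusted read counts in 3 or more SUM1315 libraries and were tested. Replicate 2 of the combination stood a little apart, with the fewest genes with a read (14612 against 15125 to 15784 in the other 5 libraries) and the lowest mean correlation with its own group (0.977 against 0.9789 to 0.9827 in the other 5, across genes). Olaparib replicate 3 differed from its own replicates 1 and 2 by 8.715 and 8.729 (chi-square over its degrees of freedom), against 2.902 between those 2 and 8.037 to 9.881 between it and the combination libraries. Of the markers checked, the mesenchymal genes VIM and CD44 were high in all 6 libraries, at 10913 to 13246 and 6540 to 7709 adjusted read counts. The basal keratin KRT5 had at most 4 reads in any of the 6 libraries, and KRT14 had 2 to 18, while the basal genes KRT17 and EGFR were at 820 to 1044 and 699 to 847 adjusted read counts. The epithelial genes CDH1, ESRP2, GRHL2 and OVOL1 had no read, as had the immune and endothelial genes CD3E, CD4, CD8A, PTPRC, CDH5 and KDR. Other genes of these lists were read in every library, with the epithelial keratins KRT18 at 231 to 295 and KRT8 at 36.0 to 91.5, the endothelial gene PECAM1 at 134 to 207 and the myeloid gene CD14 at 49.3 to 88.3. The summed level of the 17 markers of other cell types was 948 to 964 with olaparib and 873 to 938 with the combination, of which COL1A1, a collagen gene that mesenchymal lines also express, made up 424 to 561.

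Adding 2 µM CDDP to olaparib changed few genes by a large factor. A total of 65 differentially expressed genes (DEGs), defined by limma's adjusted p (0.05 or lower) and at least a 2-fold change, made up 0.495% of the genes tested, with 41 higher (0.312%) and 24 lower (0.183%). Without the limit on the fold change, 494 genes (3.76%) passed, 275 higher (2.09%) and 219 lower (1.67%). The genes that rose included DNA replication genes (CDC6, TK1, RRM2, RFC3), DNA repair genes (BRCA1, FANCD2, BLM, LIG1), NF-κB targets (CXCL1, CXCL3, BIRC3, TNFAIP3), interferon-stimulated genes, stress genes such as DDIT3, and small nucleolar RNAs (snoRNAs). The nuclear long noncoding RNAs NEAT1 and MALAT1 and 4 antioxidant genes fell. The libraries of the 2 groups did not overlap for 3101 genes (23.6%). In bulk RNA, a change in the number of cells in a state and a change in the RNA per cell cannot be told apart.

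The number of calls rested on single libraries. The 65 DEGs became 27 without replicate 2 of the combination, 38 without olaparib replicate 1 and 32 without olaparib replicate 2, and the 494 genes became 161, 155 and 152 in the same 3 fits and 258 without replicate 1 of the combination. Without olaparib replicate 3 there were 610 genes, of which 269 were higher and 341 lower, against 275 and 219 with it. edgeR on the recovered reads called 64 DEGs, 42 higher and 22 lower, and 566 genes without the limit on the fold change. With only the 6 libraries in the fit, limma called 7 DEGs and 79 genes, of which 73 were among the 494.

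**Figure D1:**
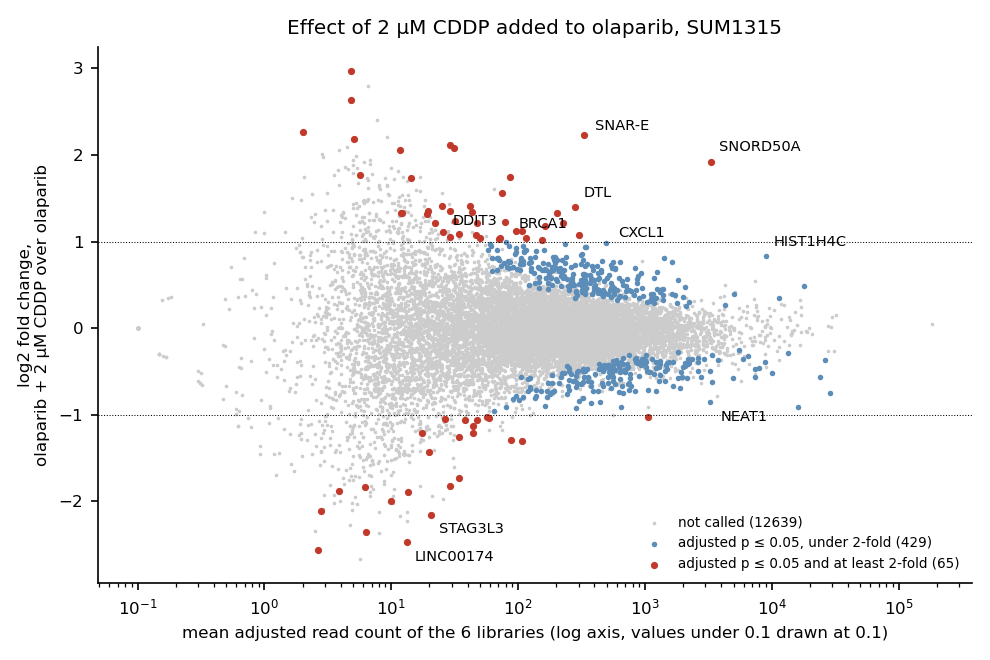
Each point is 1 of 13133 genes, with the mean adjusted read count of the 6 libraries on a log axis and the log2 fold change of olaparib + 2 µM CDDP over olaparib on the vertical axis. The 65 DEGs are red, the other 429 genes called by adjusted p are blue, and the dotted lines mark a 2-fold change. Most red points have low counts, and DTL, CXCL1, NEAT1, HIST1H4C and SNORD50A stand apart at higher counts.

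DTL, at chromosome 1, 212035748 to 212105013 (GRCh38), was the DEG with the smallest p. It encodes the substrate receptor of a CUL4 ubiquitin ligase that degrades CDT1 and p21 in S phase and after DNA damage. It was at 148, 159 and 153 adjusted read counts in the olaparib libraries and at 381, 394 and 443 in the combination. The groups were far apart, with means of 153 ± 5.09 and 406 ± 32.8 (SD, n = 3) and a log2 fold change of 1.40 ± 0.12 (SE, adjusted p = 5.16e-09). DTL kept its call with each library left out in turn, at an adjusted p of at most 4.65e-07.

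The E2F and DNA replication genes were the list with the most calls among the pathway lists. E2F transcription factors are released from the retinoblastoma protein as cells enter S phase and induce the genes of DNA synthesis. Of 29 list members tested, 10 rose (CDC6, CDT1, GINS1, MCM10, MCM4, MCM7, POLE2, RFC3, RRM2 and TK1) and 0 fell, with a list median log2 fold change of 0.35 against −0.02 over all genes. The count was 7 to 11 with each library left out, and 10 with edgeR. Calls covered 34.5% of this list, against 3.76% of all genes. None of the 10 reached a 2-fold change, so each was called by adjusted p alone.

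CDC6, which loads the MCM helicase at replication origins, was at 276, 248 and 246 adjusted read counts with olaparib and at 401, 450 and 416 with the combination (log2 fold change 0.72 ± 0.09, adjusted p = 7.92e-06). TK1, the thymidine kinase of the salvage pathway, went from 427, 398 and 395 to 641, 659 and 725 (0.73 ± 0.10, adjusted p = 3.54e-05). All 3 combination libraries lay above all 3 olaparib libraries for both genes. RFC3, a subunit of the clamp loader of the replication fork, was at 240, 221 and 211 against 362, 421 and 427 (0.84 ± 0.12, adjusted p = 5.34e-05), and RRM2, a subunit of ribonucleotide reductase, at 656, 706 and 749 against 1026, 1007 and 1164 (0.60 ± 0.10, adjusted p = 0.000588). These 4 kept their calls with each library left out. CHAF1A, a subunit of the chaperone that places histones on new DNA, was named after its values were seen and also rose, from 220, 191 and 263 to 390, 353 and 482 (0.86 ± 0.13, adjusted p = 0.000109).

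Of 26 histone genes tested, 3 rose and 0 fell (11.5% called, against 3.76% of all genes), with a median log2 fold change of 0.28. HIST1H4C, a histone H4 gene at chromosome 6, 26103933 to 26104337, was at 7192, 6440 and 5699 adjusted read counts with olaparib and at 10998, 12609 and 10768 with the combination (log2 fold change 0.83 ± 0.11, adjusted p = 3.54e-05). The groups did not overlap. HIST1H2AJ rose from a mean of 37.1 ± 8.61 to 112 ± 31.0 (1.56 ± 0.29, adjusted p = 0.00177), and HIST1H2BC from 28.0 ± 10.6 to 66.4 ± 26.7 (1.22 ± 0.35, adjusted p = 0.0423). HIST1H2BC was not called in 5 of the 6 fits without 1 library, while the other 2 genes kept theirs. Histone genes are near-identical copies, so reads may be shared between them, and their main transcripts lack the poly(A) tail that the libraries were primed from.

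Genes of homologous recombination and the Fanconi anemia pathway gave 6 higher and 0 lower of 33 tested (18.2%, against 3.76% of all genes). Their median log2 fold change was 0.30. BRCA1, which the line carries in mutated form, was at 206, 236 and 257 adjusted read counts with olaparib and at 462, 447 and 428 with the combination (log2 fold change 0.94 ± 0.13, adjusted p = 6.74e-05). The lowest combination library was above the highest olaparib library by a wide margin. FANCD2, which is monoubiquitinated at crosslinks, rose from 237, 264 and 286 to 416, 454 and 443 (0.74 ± 0.11, adjusted p = 0.000207), and BLM, a helicase that dissolves recombination intermediates, from 73.7, 92.5 and 75.9 to 160, 152 and 141 (0.90 ± 0.17, adjusted p = 0.00246). BRCA1, FANCD2 and BLM kept their calls with each library left out. BRCA2 (0.75), and BRIP1 (0.69) and BARD1 (0.57), which bind BRCA1, also rose on the log2 scale, and the list count was 3 to 6 with each library left out, the 3 coming without replicate 2 of the combination.

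Of 19 nucleotide excision repair genes, 1 rose and 1 fell, which is 10.5% against 3.76% of all genes. LIG1, the ligase of the replication fork and of long-patch repair, rose from 151, 146 and 110 to 258, 232 and 223 (log2 fold change 0.82 ± 0.15, adjusted p = 0.0019), and GTF2H5, the smallest subunit of TFIIH, fell from 723, 807 and 709 to 609, 423 and 555 (−0.51 ± 0.12, adjusted p = 0.0117). LIG1 kept its call with each library left out, and GTF2H5 lost it without olaparib replicate 2 (adjusted p up to 0.127) or replicate 2 of the combination. In limma, 0 of 25 base excision repair and PARP genes and 0 of 15 translesion synthesis genes were called, and 0 and 0 were called by edgeR. The smallest adjusted p in these lists were those of XRCC1, at a log2 fold change of 0.39 ± 0.16 (adjusted p = 0.162), and RAD18, at 0.44 ± 0.15 (adjusted p = 0.0769). Over all genes, 2462 had an unadjusted p under 0.05.

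G2/M genes, which serve chromosome condensation and the spindle, gave 5 higher and 1 lower of 30 (20%, against 3.76% of all genes). Their median log2 fold change was only 0.02. NUSAP1, a spindle microtubule protein, rose from 1163, 1035 and 1331 to 1614, 1697 and 1493 (0.45 ± 0.09, adjusted p = 0.00314). CKS2, a cyclin-dependent kinase subunit, rose from 547, 601 and 588 to 841, 819 and 919 (0.57 ± 0.12, adjusted p = 0.0055). Both kept their calls with each library left out. TTK, CDK1 and TPX2 also rose, by 0.56, 0.44 and 0.38 on the log2 scale. KIF20A, a kinesin of late mitosis, fell by 0.87 on the log2 scale.

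The promoters of genes that rose were compared for short sequences known from E2F and NF-κB sites. The windows were the 300 bases around each gene start (250 before and 50 after) in RefSeq, GRCh38.p14. The E2F letters TTTNGCGC were searched on both strands, a choice made after seeing that replication genes rose. They were in 10.8% of 203 promoters of genes that rose, 1.23% of 162 promoters of genes that fell, 3.04% of 9863 promoters of tested genes, and 45.8% of 24 promoters of the E2F list. A match is a description and not a binding site. The 3 stretches below show the match in genes of the list that rose, with the E2F letters or their reverse complement in capitals. CDT1 is on chr16:88803551-88803608 (plus strand), MCM7 on chr7:100101398-100101431 (minus strand) and POLE2 on chr14:49688263-49688320 (minus strand), and all 3 are upstream of the gene start in the promoter table.
CDT1: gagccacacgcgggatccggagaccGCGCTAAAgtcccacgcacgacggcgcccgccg
MCM7: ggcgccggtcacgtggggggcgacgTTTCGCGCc
POLE2: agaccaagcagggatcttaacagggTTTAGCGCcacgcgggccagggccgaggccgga

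For CDDP in this line, the study named BIRC3, TRAF1 and CCL20 in TNF receptor and related signaling and proposed a role for NF-κB. It used 4 µM CDDP for this and left out the lower dose, for minimal effects on the transcriptome. Of 30 NF-κB targets tested here at 2 µM, 5 rose (CXCL1, CXCL3, BIRC3, TNFAIP3 and TRAF1) and 1 fell (SOD2). That is 20% called, against 3.76% of all genes, and the list median log2 fold change was 0.24. The list was drawn up with these results known and is not independent evidence of its direction. The higher count was 4 or 5 with each library left out.

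CXCL1, a neutrophil-attracting chemokine at chromosome 4, 73869393 to 73871308, was at 314, 330 and 351 adjusted read counts with olaparib and at 622, 641 and 704 with the combination. The groups did not overlap, and the log2 fold change was 0.98 ± 0.11 (adjusted p = 9.95e-07). CXCL3, its close paralog at chromosome 4, 74036589 to 74038689, rose from 756, 766 and 640 to 1181, 960 and 1243 (0.64 ± 0.12, adjusted p = 0.00265). Reads may be shared between the 2 paralogs. TNFAIP3 (A20), a ubiquitin-editing inhibitor that NF-κB induces against itself, rose from 353, 354 and 348 to 531, 559 and 564 (0.65 ± 0.10, adjusted p = 0.000315). BIRC3 (cIAP2), a ubiquitin ligase of the TNF receptor complex that protects against caspase-8 activation, rose from 404, 450 and 491 to 750, 755 and 655 (0.68 ± 0.13, adjusted p = 0.00165). All 4 kept their calls with each library left out and did not overlap between groups. In untreated cells TNFAIP3 was at 685, 643 and 736, above every combination library. BIRC3 was at 554, 525 and 639 there, below every combination library, and CXCL1, at 604, 702 and 423, overlapped them.

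TRAF1, an adaptor that binds BIRC3, was at 23.7, 7.26 and 11.0 adjusted read counts with olaparib and at 32.7, 28.5 and 29.5 with the combination (log2 fold change 1.21 ± 0.34, adjusted p = 0.0373). It passed as a DEG by a narrow margin on few reads, and 5 of the 6 fits without 1 library did not call it (adjusted p up to 0.239). CCL20, a chemokine for CCR6-bearing lymphocytes, was at 73.5, 110 and 81.9 against 75.8, 45.7 and 107 (−0.27 ± 0.28, adjusted p = 0.651). The groups overlapped, and without replicate 2 of the combination the log2 fold change was 0.05. SOD2, the mitochondrial superoxide dismutase, fell by 0.52 on the log2 scale. NFKBIL1, an IκB-like protein named after its values were seen, rose from 176, 205 and 204 to 458, 388 and 389 (1.07 ± 0.16, adjusted p = 8.6e-05).

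The κB motif (runs of G and C around a variable middle), searched on both strands, was in 58% of all 27305 promoters, 73.2% of 9863 promoters of tested genes and 74.4% of 203 promoters of genes that rose, so the share among genes that rose was near that of the tested genes. It was in 23 of 26 promoters of the NF-κB list (88.5%). The AP-1 letters TGANTCA were in 7.39% of the promoters of genes that rose and in 6.17% of those of genes that fell. Among tested genes the share was 4.71%, and among all promoters 7.76%. The 3 stretches below show the κB match, read as its reverse complement and in capitals, in genes that rose. BIRC3 is on chr11:102317324-102317383 (plus strand), CXCL1 on chr4:73869290-73869349 (plus strand) and CXCL3 on chr4:74038733-74038792 (minus strand). CXCL1 and CXCL3 hold the same 10 letters in capitals, each starting 78 bases before the gene start.
BIRC3: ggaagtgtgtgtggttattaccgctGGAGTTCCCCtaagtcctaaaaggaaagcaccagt
CXCL1: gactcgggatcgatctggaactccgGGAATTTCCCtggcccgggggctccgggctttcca
CXCL3: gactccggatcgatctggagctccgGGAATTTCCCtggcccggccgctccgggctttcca

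Interferon-stimulated genes are induced through STAT and IRF factors and also through nucleic acid sensing. They gave 5 higher and 0 lower of 29 (17.2%, against 3.76% of all genes), with a median log2 fold change of 0.32. DDX58 (RIG-I), the cytoplasmic RNA sensor, was at 404, 397 and 399 with olaparib and at 607, 613 and 575 with the combination (0.58 ± 0.09, adjusted p = 0.000385), and it kept its call with each library left out. ISG15, a ubiquitin-like modifier, rose from 585, 423 and 505 to 727, 694 and 823 (0.58 ± 0.13, adjusted p = 0.0108). OASL, IFI35 and IFIT2 rose by 0.64, 0.92 and 0.55. The count was 2 to 4 with each library left out and 7 with edgeR, and ISG15, OASL and IFI35 each lost their call in 2 of those fits.

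The ATF4 response raises amino acid synthesis and the translation phosphatase subunit under stress. Its genes gave 5 higher and 0 lower of 24 (20.8%, against 3.76% of all genes), with a median log2 fold change of 0.14. DDIT3 (CHOP), a transcription factor of prolonged stress, was at 53.1, 63.2 and 63.0 with olaparib and at 117, 122 and 155 with the combination (1.12 ± 0.21, adjusted p = 0.00177). The groups did not overlap and DDIT3 kept its call with each library left out. In untreated cells DDIT3 was at 164, 157 and 160, above every combination library. PPP1R15A (0.45 ± 0.10, adjusted p = 0.0068), PHGDH, the first enzyme of serine synthesis (0.57 ± 0.12, adjusted p = 0.0068), NUPR1 (0.67 ± 0.15, adjusted p = 0.0119) and TRIB3 (0.45) also rose on the log2 scale. The list count was 1 to 4 with each library left out, the 1 coming without olaparib replicate 2.

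The p53 target list gave 2 higher and 1 lower of 25 (12%, against 3.76% of all genes), with a median of 0.05. The study states that the line expresses mutant p53. PMAIP1 (NOXA) and AEN rose by 0.51 ± 0.13 (adjusted p = 0.0243) and 0.59 ± 0.14 (adjusted p = 0.017) on the log2 scale, and ZMAT3 fell by 0.56 ± 0.13 (adjusted p = 0.0162). PMAIP1 lost its call in 4 fits that left out a library, AEN in 3 and ZMAT3 in 2. In the AP-1 and immediate early list of 24 genes, FOSL2 rose (0.67) and EGR1 fell (−0.53), which is 8.33% called. In the MAPK feedback list of 19, ETV4 (0.46) and PHLDA1 (0.32) rose, which is 10.5%. EGR1 and PHLDA1 lost their calls in 5 of the 6 fits without 1 library, ETV4 in 4 and FOSL2 in 2. In the list of 26 BCL2 family and death receptor genes, BIRC3 and PMAIP1 rose, and MCL1, a survival protein that NOXA binds, fell from 4024, 4105 and 3299 to 2822, 2438 and 2835 (−0.49 ± 0.13, adjusted p = 0.0231). MCL1 lost its call without olaparib replicate 1 or 2 or replicate 2 of the combination. Calls covered 11.5% of the BCL2 family and death receptor list.

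Among genes that fell, the NRF2 antioxidant list had 4 of 19 (TXNRD1, GCLM, SRXN1 and FTH1) and 0 that rose (21.1% called, against 3.76% of all genes). Its median log2 fold change was −0.08. TXNRD1, a thioredoxin reductase, went from 1430, 1488 and 1545 to 1184, 1149 and 1104 (−0.38 ± 0.09, adjusted p = 0.0126), and FTH1, the ferritin heavy chain, from 39368, 37050 and 32005 to 21564, 19814 and 23268 (−0.74 ± 0.20, adjusted p = 0.031). The groups did not overlap for either gene, but FTH1 lost its call in 5 fits that left out a library, and the list count was 0 without olaparib replicate 2. HK2 and KDM3A fell by 0.65 and 0.61 (2 of 19 glycolysis and hypoxia genes, 10.5%). The chaperones HSPA8 and HSP90AB1 fell by 0.35 and 0.29 (2 of 15 heat shock genes, 13.3%), and each lost the call whichever library was left out. HK2 and KDM3A each lost it in 5 of the 6 fits. Of 3 metallothioneins tested, 0 were called by limma and 1 was lower by edgeR, and MT2A had a log2 fold change of −0.26 ± 0.08 (adjusted p = 0.0565).

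**Figure D2:**
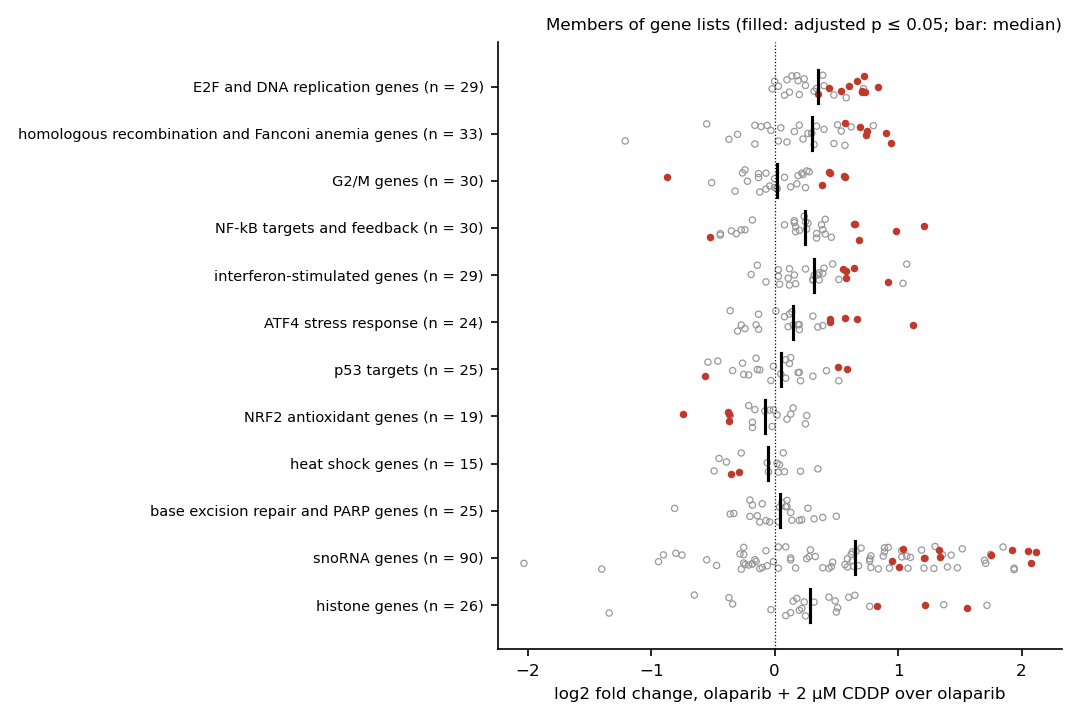
Each point is a member of a gene list, placed by its log2 fold change of olaparib + 2 µM CDDP over olaparib, with n the members tested. Filled red points were called by adjusted p and black bars are list medians, which lie at 0.35 for the E2F list, 0.65 for snoRNA genes and 0.02 for G2/M genes.

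NEAT1, the nuclear RNA that builds paraspeckles, at chromosome 11, 65422798 to 65445540, was at 4022, 4318 and 4203 adjusted read counts with olaparib and at 2129, 2491 and 2325 with the combination. The groups were well apart (log2 fold change −0.85 ± 0.09, adjusted p = 1.02e-07). MALAT1, its neighbour on the chromosome and a nuclear speckle RNA, fell from 3817, 3757 and 4751 to 2500, 2601 and 2907 (−0.62 ± 0.13, adjusted p = 0.00552). MIR205HG, the host transcript of miR-205, was named after its values were seen and fell from 1733, 1606 and 1372 to 1060, 1075 and 933 (−0.61 ± 0.09, adjusted p = 8.6e-05). All 3 kept their calls with each library left out. NEAT1 was at 8597, 8590 and 9845 in untreated cells and at 1934, 2176 and 1849 with 2 µM CDDP and no olaparib.

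**Figure D3:**
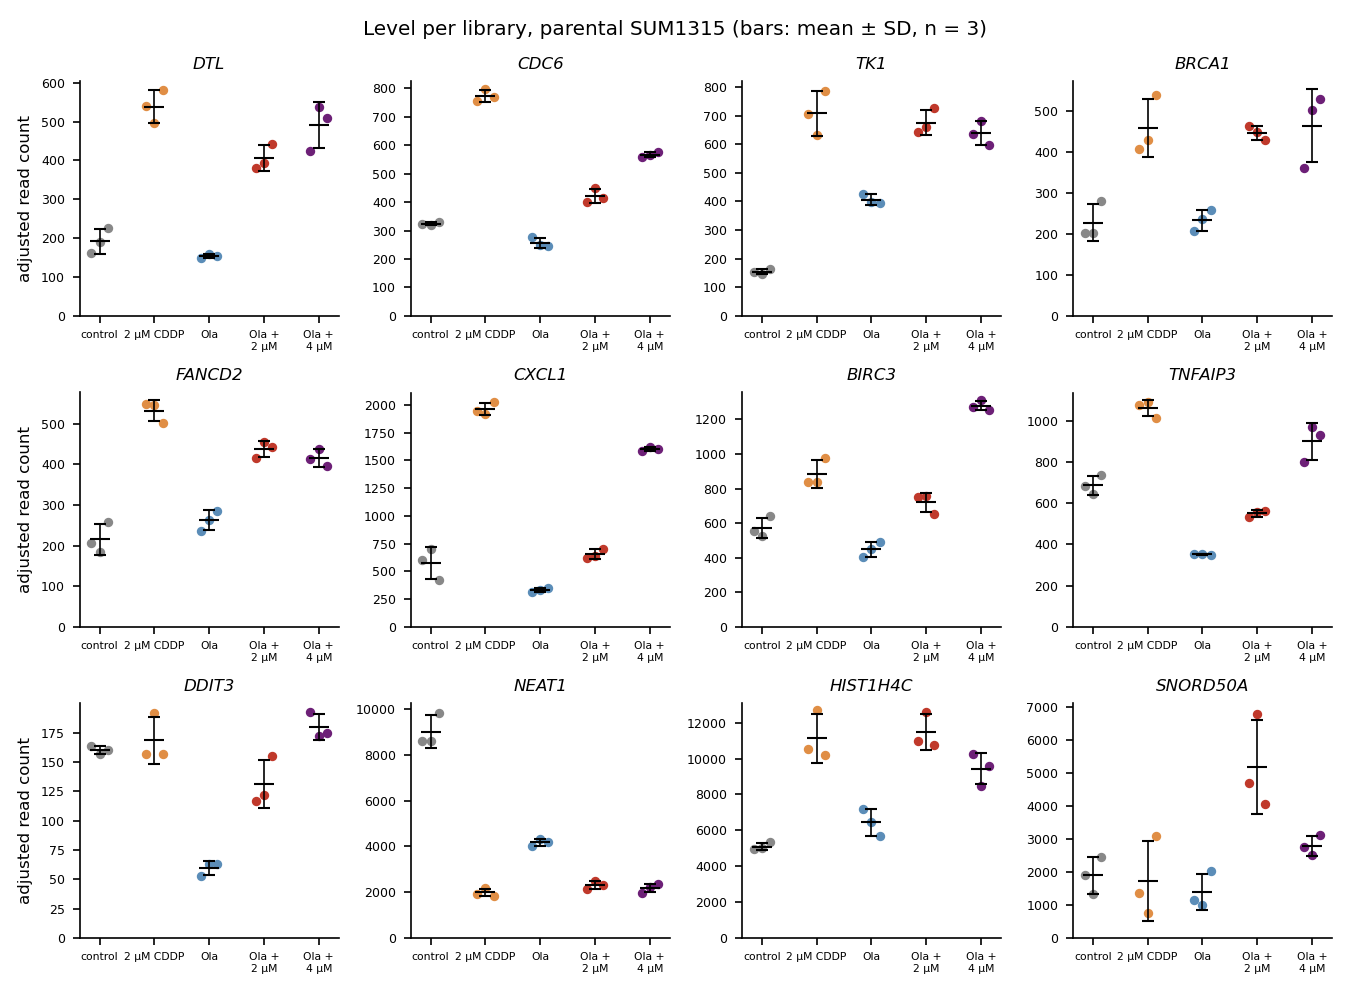
Adjusted read counts of 12 genes, 1 point per library, with bars for the mean ± SD of 3 libraries in untreated, 2 µM CDDP, olaparib, olaparib + 2 µM CDDP and olaparib + 4 µM CDDP SUM1315 cells. DTL rises from 148 to 159 with olaparib to 381 to 443 with the combination, and NEAT1 falls from 4022 to 4318 to 2129 to 2491.

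Of the 12 DEGs with the largest rise among those with a mean of at least 20 and no overlap, 5 were snoRNA or histone genes, and many of the 24 rested on few reads. SNAR-E, a small noncoding RNA with near-identical copies, was at 112, 85.9 and 155 with olaparib and at 521, 647 and 470 with the combination (log2 fold change 2.23 ± 0.25, adjusted p = 9.95e-07), and its reads may come from any copy. AURKAPS1, LOC341056, LOC105370333, PARD6A and SCUBE3 rose from means of 6.72 to 21.9 to means of 21.7 to 62.2. Each of these 5 was not called in 3 to 5 of the 6 fits without 1 library.

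Among the 12 largest falls, LINC00174 went from 33.0, 20.3 and 15.0 to 1.26, 7.28 and 2.62 (log2 fold change −2.47 ± 0.48, adjusted p = 0.00277), STAG3L3, which has near-identical copies, from 40.3, 30.5 and 30 to 8.94, 9.42 and 3.41 (−2.15 ± 0.42, adjusted p = 0.00279), and NCK1-AS1, an antisense RNA, from 65.5, 67.6 and 50 to 22.8, 26.4 and 33.3 (−1.13 ± 0.24, adjusted p = 0.0068). These 3 kept their calls with each library left out. The other 9 lost theirs in 3 to 5 fits, among them SLC39A11, a zinc transporter (−1.30 ± 0.33, adjusted p = 0.0212), and DHRS2, a carbonyl reductase (−1.29 ± 0.34, adjusted p = 0.0265).

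The snoRNAs had the largest list median. These short RNAs guide the methylation or pseudouridylation of ribosomal RNA and are mostly cut from introns of host genes. Of 90 snoRNA genes tested, 11 rose and 0 fell (12.2% called, against 3.76% of all genes). Their median log2 fold change was 0.65 against −0.02 over all genes. The count was 3 without replicate 2 of the combination or without olaparib replicate 2, 4 without olaparib replicate 1, up to 11 in the other 3 fits, and 13 with edgeR. SNORD50A is shown because it had the most reads and an internal run of A, with SNORD50B and SNORD79 beside it. All 3 are box C/D snoRNAs, and the C box (TGATGA) and D box (CTGA) are in capitals. The sequences are from RefSeq GRCh38.p14, at chr6:85677294-85677368, chr6:85677589-85677659 and chr1:173865350-173865430, each on the minus strand.
SNORD50A: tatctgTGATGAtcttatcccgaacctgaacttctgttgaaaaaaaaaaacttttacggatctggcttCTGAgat
SNORD50B: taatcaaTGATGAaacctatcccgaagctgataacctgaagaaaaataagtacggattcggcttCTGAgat
SNORD79: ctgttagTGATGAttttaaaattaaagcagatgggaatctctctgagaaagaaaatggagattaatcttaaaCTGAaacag

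SNORD50A was at 1160, 1011 and 2028 adjusted read counts with olaparib and at 4702, 6803 and 4057 with the combination (log2 fold change 1.92 ± 0.28, adjusted p = 0.000109). The groups did not overlap, and replicate 2 of the combination was the highest. Its longest run of A is 11 bases, against 5 in SNORD50B and 4 in SNORD79, and the libraries were primed with oligo-dT. SNORD79 rose from 120, 121 and 161 to 304, 401 and 242 (1.21 ± 0.25, adjusted p = 0.00499) and lost its call without replicate 2 of the combination. SNORD50B also rose, with a log2 fold change of 1.68 to 2.8 in the 6 fits without 1 library. It lost its call in 3 of these fits (limma's adjusted p up to 0.105). Their host genes did not move with them. SNHG5, host of SNORD50A and SNORD50B, was at 2735, 3073 and 2690 against 2953, 2710 and 3190 (0.06 ± 0.09, adjusted p = 0.783), and GAS5, host of SNORD79, had a log2 fold change of 0.02 ± 0.11 (adjusted p = 0.952). SNHG1, another snoRNA host, rose from 1030, 994 and 843 to 1450, 1395 and 1415 (0.58 ± 0.12, adjusted p = 0.00455).

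Summed over the annotated snoRNA genes, the olaparib libraries held 704, 650 and 873 CPM (adjusted read counts scaled to the library total) and the combination 1704, 2219 and 1397. The highest value was in replicate 2 of the combination, the library with the fewest genes with a read. Untreated cells held 743 to 1275, cells with 2 µM CDDP alone 471 to 1221, olaparib plus 4 µM CDDP 1087 to 1420 and OlaR cells 1581 to 1793. The libraries with 2 µM CDDP alone thus overlapped the untreated ones, and at 4 µM the sum lay between that of olaparib and that of the 2 µM combination, except that replicate 3 at 4 µM (1420) passed the lowest combination library (1397). Histone genes summed to 1289 to 1501 CPM with olaparib and 2158 to 2641 with the combination, against 1044 to 1120 in untreated cells and 2013 to 2306 with 2 µM CDDP alone. What part RNA quality or the priming step had in the snoRNA and histone values was not tested.

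**Figure D4:**
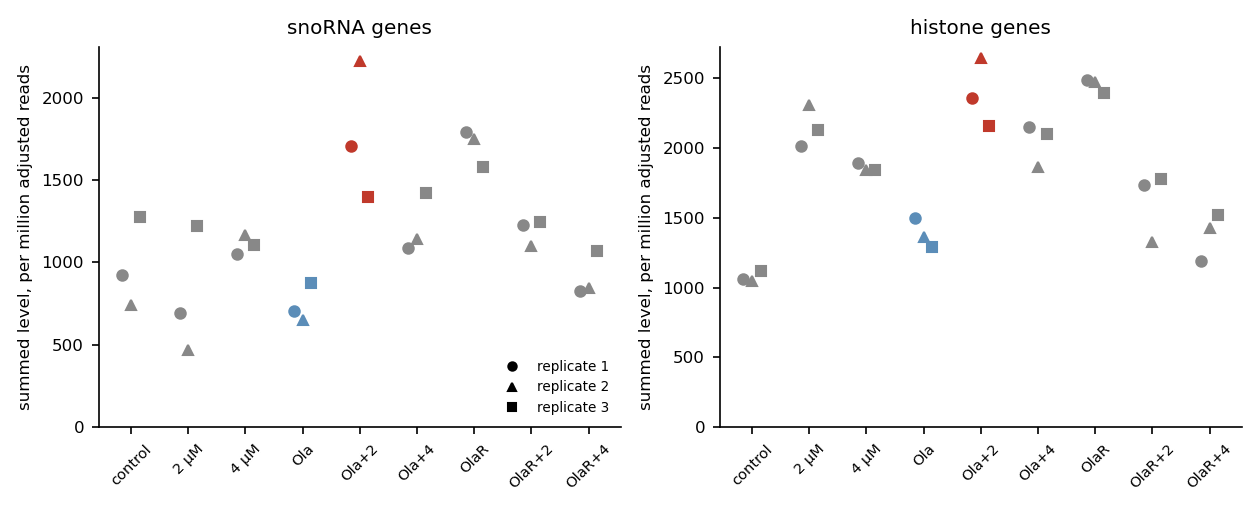
Summed CPM over annotated snoRNA genes and over histone cluster genes in each SUM1315 library, 1 point per library, with olaparib (Ola) in blue, olaparib + 2 µM CDDP in red and marker shapes for the replicate. The snoRNA sum was 1397 to 2219 in the olaparib + 2 µM CDDP libraries and 650 to 873 with olaparib, and the histone sum was 2158 to 2641 against 1289 to 1501.

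The same dose of CDDP without olaparib changed many more genes. Against untreated cells, 4458 genes (33.9%) passed, 2552 higher (19.4%) and 1906 lower (14.5%), with 1155 DEGs (711 higher and 444 lower). This comparison shares no library with the combination against olaparib. Of the 494 genes called with olaparib, 291 (58.9%) moved in the same direction without it, against 50.6% of all genes tested. A call in the same direction was made in both for 184, which are 37.2% of the 494 and 4.13% of the 4458, and 72 were called in opposite directions. Of the 275 genes that rose with olaparib, 122 were called higher without it, against 19.4% of all genes. Of the 219 that fell, 62 were called lower without it, against 14.5% of all genes.

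The difference of the CDDP effect with and without olaparib was tested as an interaction and was called for 2944 genes (22.4%). For 1563 of these, the gene was called higher with CDDP alone and the effect was lower in the presence of olaparib. Of them, 46 were also called higher in the combination against olaparib. For 874, the gene was called lower with CDDP alone and the effect was higher with olaparib. Of them, 13 were also called lower in the combination against olaparib. A gene without a call may still have moved. The difference uses the same libraries, so both counts depend partly on how the genes were picked. RRM2 was at 303, 328 and 249 in untreated cells and at 1380, 1646 and 1267 with 2 µM CDDP alone, a log2 fold change of 2.28 against 0.60 in the presence of olaparib (difference −1.69, adjusted p = 4.15e-10). TK1 had 2.18 without and 0.73 with olaparib (difference −1.45, adjusted p = 5.48e-09). For both, olaparib-treated cells without CDDP lay above untreated cells, at 427, 398 and 395 against 155, 145 and 164 for TK1.

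By list, the difference was called negative, meaning a smaller rise or a larger fall with olaparib than without, for 15 of 29 E2F genes and positive for 0, against 14% negative and 8.44% positive of all genes tested. It was negative for 27 of 30 G2/M genes, 10 of 33 homologous recombination and Fanconi anemia genes (positive for 2), and 11 of 29 interferon-stimulated genes (positive for 1). In the ATF4 list it was the reverse, with a positive difference in 13 of 24 and a negative one in 2. NUPR1, a stress-induced chromatin protein, fell with CDDP alone (−0.45) and rose with olaparib (0.67, difference 1.12, adjusted p = 0.000297), and DDIT3 had 0.07 without and 1.12 with olaparib (difference 1.05, adjusted p = 0.00897). In the NF-κB list 8 of 30 had a negative and 3 a positive difference.

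Not every gene that rose differed in this way. DTL had 1.49 without and 1.40 with olaparib (difference −0.09, adjusted p = 0.754), BRCA1 1.01 and 0.94 (−0.08, adjusted p = 0.814), BIRC3 0.63 and 0.68 (0.06, adjusted p = 0.858), TNFAIP3 0.63 and 0.65 (0.02, adjusted p = 0.935) and RFC3 0.78 and 0.84 (0.07, adjusted p = 0.815). For these 5 no difference was detected with 3 libraries per group, which does not show that the effects were equal. CXCL1 differed, with 1.8 without and 0.98 with olaparib (−0.82, adjusted p = 0.000269), and so did CCL20, with 1.37 and −0.27 (−1.65, adjusted p = 0.00275). Among snoRNA genes, 20 of 90 had a positive and 1 a negative difference.

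The 4 genes with the smallest p for the difference were MT1E, KRT17, TUBA1B and RCAN1. MT1E, a metallothionein, was at 166, 167 and 92.4 in untreated cells, 1351, 1199 and 1364 with CDDP alone, 1677, 1579 and 1564 with olaparib, and 1474, 1451 and 1606 with the combination. It was thus low in untreated cells only, with a log2 fold change of 3.24 without and −0.09 with olaparib (difference −3.33, adjusted p = 9.26e-15). TUBA1B, an alpha tubulin, went from 3596, 3894 and 3447 to 13553, 16466 and 12453 with CDDP alone, and was at 10810 to 11963 with olaparib and 12892 to 14449 with the combination (difference −1.68, adjusted p = 2.89e-11). RCAN1, an inhibitor of calcineurin, and KRT17, a keratin, fell with CDDP alone by 1.70 and 1.43 on the log2 scale and had 0.04 and 0.24 with olaparib (differences 1.74 and 1.67, adjusted p = 5.86e-11 and 1.68e-11).

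**Figure D5:**
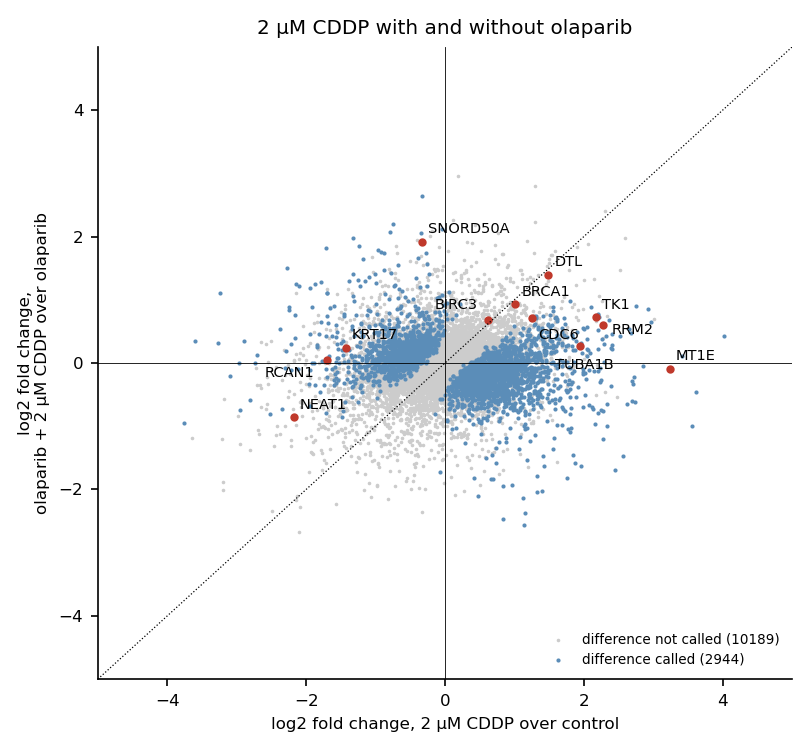
Each point is a gene, with its log2 fold change for 2 µM CDDP over untreated cells on the horizontal axis and for olaparib + 2 µM CDDP over olaparib on the vertical axis, and the dotted line marks equal effects. Blue points are the 2944 genes with a called difference, and DTL, BRCA1 and BIRC3 lie near the line, with MT1E and RRM2 far below it.

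Raising CDDP from 2 to 4 µM in the presence of olaparib was called for 106 genes (0.807%), 75 higher and 31 lower at 4 µM. The comparison shares the combination libraries with those above, so the values are only set side by side. Of 30 NF-κB targets, 13 were higher at 4 µM and 0 lower, against 0.571% of all genes higher. CXCL1 went from 622, 641 and 704 at 2 µM to 1586, 1623 and 1606 at 4 µM (log2 fold change 1.29, adjusted p = 1.37e-09), and BIRC3 from 750, 755 and 655 to 1270, 1310 and 1257 (0.83, adjusted p = 0.000186). CXCL8, a chemokine, was at 2081, 1517 and 2291 at 2 µM, which overlapped the 1601, 1710 and 1181 of olaparib, and at 6744, 5603 and 4735 at 4 µM (1.54, adjusted p = 1.27e-08).

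PTGS2 (cyclooxygenase 2) was at 2065, 2149 and 1668 with olaparib, 2291, 2225 and 2438 at 2 µM (no overlap, adjusted p = 0.108) and 4812, 4664 and 5528 at 4 µM (log2 fold change from 2 to 4 µM 1.11, adjusted p = 8.75e-10). INHBA, a subunit of activin, had already risen at 2 µM, from 54.2, 59.1 and 43.0 to 97.0, 85.4 and 88.5 (0.79 ± 0.12, adjusted p = 0.000226), and was at 217, 278 and 269 at 4 µM (1.48, adjusted p = 8.75e-10). CCL20 was higher at 4 than at 2 µM by 1.69 on the log2 scale (adjusted p = 0.000676). Among the replication and repair genes, DTL (0.27, adjusted p = 0.329), TK1 (−0.08, adjusted p = 0.789), BRCA1 (0.04, adjusted p = 0.936) and FANCD2 (−0.08, adjusted p = 0.836) had no called step and CDC6 had one (0.43, adjusted p = 0.0107). Of the 29 E2F genes, 2 were higher at 4 µM and 0 lower. The 106 calls fell to 37 without replicate 2 of the 2 µM combination and to 63, 62 and 47 without replicates 1, 2 and 3 of the 4 µM combination.

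In OlaR cells, 2 µM CDDP changed 187 genes (1.42%), 72 higher and 115 lower. These libraries were also kept in olaparib, at a higher dose, and share none with the combination against olaparib. Of the 494 genes, 276 (55.9%) moved in the same direction in OlaR cells, against 50% of all genes tested. A call in the same direction was made in both for 16, which are 3.24% of the 494 and 8.56% of the 187, and 4 were called in opposite directions. Of the 275 genes that rose in parental cells, 13 were called higher in OlaR cells, against 72 of all 13133 genes. Of the 219 that fell, 3 were called lower, against 115 of all 13133. The difference of the effect between olaparib-treated parental and OlaR cells was called for 181 genes (1.38%). That count was 40 and 48 without olaparib replicate 2 and 1, 59 to 101 without each combination library, and 61 to 109 without each OlaR library.

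CXCL1 rose in OlaR cells too, from 1170, 1089 and 1093 to 2082, 2285 and 2130 (log2 fold change 0.95, adjusted p = 7.76e-06, difference from parental 0.03, adjusted p = 0.955), as did BIRC3 (0.74, adjusted p = 0.000789, difference −0.06, adjusted p = 0.91) and DTL (0.64, adjusted p = 0.00227), with a larger rise of DTL in parental cells (difference 0.75, adjusted p = 0.0235). HIST1H4C went the other way, from 12676, 12568 and 12229 in OlaR cells to 8524, 6368 and 8878 with CDDP (−0.67, difference 1.5, adjusted p = 8.51e-07). OlaR cells without CDDP thus overlapped the parental combination libraries, at 10998, 12609 and 10768. NEAT1 was similar in this respect, at 2344, 2485 and 2439 in OlaR cells and 2467, 2755 and 2445 with CDDP (0.08, difference −0.93, adjusted p = 3.04e-05). CKS2 fell in OlaR cells (−0.63) and rose in parental cells (0.57, difference 1.20, adjusted p = 0.000135), and SNAR-E had −0.52 in OlaR cells (difference 2.75, adjusted p = 3.04e-05).

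Genes were also grouped by their genomic span, since long genes need more time and more undamaged template to be transcribed. The span was known for 12912 of the 13133 genes. With the combination, 3.57% of 2944 genes under 10 kb rose and 1.77% fell, and of the genes over 300 kb 1.07% rose and 0.641% fell, with a median log2 fold change of −0.09 in the longest genes. With 2 µM CDDP alone, 32.9% of the genes over 300 kb fell and 4.06% rose (median −0.44), against 14.5% and 19.4% of all genes. In OlaR cells 11.1% of the genes over 300 kb fell, against 0.876% of all genes, and 0 rose (median −0.36). With 4 µM CDDP and olaparib, 9.62% of them fell, against 4.08% of genes under 10 kb and 4.09% of all genes, and 2.56% rose, against 4.35% of all genes. The difference of the effect with and without olaparib was positive for 16.7% of genes over 300 kb and negative for 1.71%. These shares were 8.05% and 16.1% for genes under 10 kb, and 8.44% and 14% for all genes.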

How the data were processed

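Cells of the SUM1315 and MDA-MB-468 lines gave 54 libraries (18 conditions of 3), made with QuantSeq 3′ mRNA-seq (FWD), primed with oligo-dT from total RNA. The submitters' processing notes name CASAVA 1.8.2, FastQC, STAR, HTSeq, edgeR and hg38. Doses are in µM as in the sample titles. The authors deposited a table of signal values, which are read counts that edgeR had adjusted to a common library size of 5585170 (common dispersion 0.01039). Inverting this step recovered whole reads for 100% of 1483380 values within a relative tolerance of 1e-06. All 54 value columns matched a library. The authors' tables of log2 fold changes, p-values and FDR against untreated cells were not used.

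Because the values are adjusted counts, the main test was limma 3.58.1 (R 4.3.3, trend on intensity) on log2(value + 1), a pseudocount of 1, so fold changes of low genes are understated. All 27 SUM1315 libraries in 9 groups were fitted together, on 13133 genes that reached 10 in 3 or more libraries. P-values were adjusted by Benjamini-Hochberg over these genes, and genes past 0.05 with at least a 2-fold change are DEGs. Interactions gave the differences between CDDP effects. edgeR 4.0.16 (quasi-likelihood test, TMM or DESeq2 size factors) and DESeq2 1.42.0 were run on the recovered reads; edgeR called 566 genes by adjusted p alone. The procedure was also run on simulated reads with known changes. These were drawn independently for each library, so the run does not bear on libraries that stand apart from their group.

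Other alternatives were a pseudocount of 5, no filter, a filter of 30, a log2 fold change limit of 2, a replicate block, a fit without the other groups, and fits without each library in turn. No 2 of the 6 libraries compared were alike within sampling noise. Read totals limit the precision of genes with few reads.

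The members and gene lists were chosen with earlier results of these data known. Genes were named by a rule: the 12 largest rises and 12 largest falls among DEGs without overlap and with a mean of at least 20 in the higher group, BIRC3, TRAF1 and CCL20, up to 4 called members of each list, and the 4 smallest p of each difference. Other genes were added after their values were seen. Sequences and positions are those of RefSeq GRCh38.p14, the build family of hg38. Of the names in the table, 25194 matched a current symbol, 1223 an older one and 1053 none, 27 having been turned into dates. Mitochondrially encoded transcripts were not analysed here, and results of some genes are not reported here.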

Additional observations from a re-analysis of the deposited data

Results flagged for a closer look

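The genes named in the report were listed here where limma's test of the difference between 2 CDDP effects, adjusted over all genes, passed 0.05. Values are log2 differences, and nothing was tested about what lies behind them. Each set of libraries had 3 per group.

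For 2 µM CDDP in parental cells, the effect with olaparib minus the effect without olaparib passed for 52 of the named genes. Their adjusted p in limma ran from 9.26e-15 (MT1E) to 0.0401. Over all genes tested, this difference passed for 22.4%. It was positive for SNORA74A (2.87), SCUBE3 (2.45), SNORA38 (2.39), SNORD50A (2.26), SNORD50B (2.15), SNORA21 (2.03), SNORD57 (1.82), SNORA75 (1.77), RCAN1 (1.74), KRT17 (1.67), AURKAPS1 (1.65), SNORA11F (1.61), SNORD79 (1.57), NEAT1 (1.33), NUPR1 (1.12), NFKBIL1 (1.11), DDIT3 (1.05), SNHG1 (1.02), IFI35 (0.94), MIR205HG (0.82), EGR1 (0.80), PHGDH (0.79), MALAT1 (0.64), AEN (0.63) and PPP1R15A (0.57). It was negative for MT1E (−3.33), LINC00174 (−3.31), LOC100507599 (−2.24), RRM2 (−1.69), TUBA1B (−1.68), LOC100289230 (−1.66), CCL20 (−1.65), NCK1-AS1 (−1.65), LINC01806 (−1.55), TK1 (−1.45), CDK1 (−1.39), UBE2B (−1.23), MT2A (−1.19), NEIL3 (−1.19), TTK (−0.84), CXCL1 (−0.82), NUSAP1 (−0.78), GTF2H5 (−0.78), ISG15 (−0.77), KDM3A (−0.71), HK2 (−0.70), FANCD2 (−0.57), GCLM (−0.56), CDC6 (−0.54), HSPA8 (−0.50), TXNRD1 (−0.43) and DDX58 (−0.42). Many genes were named for a call in the combination against olaparib or for the difference itself. The combination against olaparib shares libraries with the difference, so the make-up of the positive and negative sets follows partly from the naming.

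For 2 µM CDDP, the effect in olaparib-treated parental cells minus that in OlaR cells passed for 27 of the named genes. Their adjusted p in limma ran from 8.51e-07 (HIST1H4C) to 0.0484. Over all genes tested, this difference passed for 1.38%. That share is no yardstick for the 27, since HIST1H4C, SNAR-E, NEAT1 and CKS2 were named for their small p in this same difference. Many others were named for a call in the combination against olaparib, which shares libraries with the difference. It was positive for SNORA38 (2.90), SNAR-E (2.75), HIST1H2AJ (2.50), SNORA21 (2.46), SNORD50A (2.45), SNORA75 (2.31), AURKAPS1 (2.07), LOC341056 (1.99), SNORD79 (1.92), SCARNA22 (1.73), SNORD57 (1.69), HIST1H4C (1.5), CKS2 (1.20), IFI35 (1.17), NFKBIL1 (1.03), FANCD2 (0.86), DTL (0.75), TTK (0.70), KRT17 (0.70), TK1 (0.65) and NUSAP1 (0.53). It was negative for LINC00174 (−2.56), SGK494 (−2.11), NCK1-AS1 (−1.36), MALAT1 (−1.03), NEAT1 (−0.93) and GCLM (−0.60). Parental and OlaR cells also differed in olaparib dose, 8 and 25 µM, and the 2 cannot be told apart.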

How the results depend on the processing

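With the values in the order DEGs, DEGs higher, DEGs lower and genes by adjusted p alone for CDDP added to olaparib (65, 41, 24 and 494), a fit of only the groups compared gave 7, 7, 0 and 79 (2464 genes had an unadjusted p under 0.05 in that fit), and no filter on low values gave 39, 24, 15 and 243, over more genes. DESeq2 gave 789 genes by adjusted p alone, and a log2 fold change limit of 2 left 13 DEGs. Leaving out each library gave 27 to 87, 15 to 56, 8 to 47 and 152 to 610. The 47 came without replicate 3 of the combination. CDDP without olaparib gave 173 DEGs at a log2 limit of 2 in place of 1155, and 819 to 1320 with each library left out. The 2944 differences with and without olaparib were 1998 to 3216 in the other alternatives and 2195 to 3264 with each library left out. For the step from 2 to 4 µM (106), only the groups compared gave 32, DESeq2 258, and leaving out each library 37 to 96. For the difference between parental and OlaR cells (181), no filter gave 80, only the groups compared 436, DESeq2 366, and leaving out each library 40 to 204. The cause of these moves was not tested.

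No pairing of the libraries by replicate number was detected. Deviations from the group means correlated at 0.029, −0.1 and −0.091 across 10369 genes between libraries of the same number. Weak correlations do not show that libraries of the same number were handled apart. With a block for the replicate number, the combination against olaparib gave 64 DEGs, of which 40 were higher and 24 lower, and 507 genes, of which 465 were among the 494, CDDP alone 1151 DEGs, and the differences and the dose step 2947, 167 and 96.

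Of 103 results for single genes, 95 passed the threshold. Of these, 44 kept the call with each library left out and 32 under every other alternative run. Only CCL20 changed sign, from −0.27 to 0.05 (adjusted p = 0.965, with a range of −0.56 to 0.05 over the fits without 1 library) without replicate 2 of olaparib + 2 µM CDDP. The median log2 fold change of all genes was −0.0214 in limma and −0.00309 in edgeR on the recovered reads. Depth limits genes with few reads, whose fold changes rest on single libraries.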

Other observations

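Olaparib alone, against untreated SUM1315 cells, raised 28 of 30 G2/M genes and lowered 0 (median log2 fold change 1.01), which are the same counts as for 2 µM CDDP alone (28 and 0, median 1.00). Over all genes tested, olaparib alone raised 18.9% and lowered 17.1%, and 2 µM CDDP alone raised 19.4%. In the ATF4 list olaparib raised 1 of 24 and lowered 17 (median −0.66), and in the NF-κB list it raised 4 of 30 and lowered 12 (median −0.26). These comparisons share libraries with the others in the report, so the counts are only set side by side. Reads of ribosomal protein genes summed to 89193 to 91860 CPM with olaparib and 90417 to 92117 with the combination.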
